A study of Mus musculus with 13 samples.

Results

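Brush border peptidases are the enzymes on the microvilli of the absorptive enterocyte that cut peptides left by pancreatic digestion into amino acids and short peptides for uptake. They work from different ends of a peptide: aminopeptidases take residues off the start, peptidyl dipeptidases take pairs off the end, endopeptidases such as the meprins and neprilysin cut inside the chain, and gamma-glutamyltransferase with dipeptidase 1 takes glutathione apart. Several also cut hormones, and the same set is found on the proximal tubule of the kidney. The members were taken by gene symbol as a fixed list of 10 genes (Anpep, Enpep, Xpnpep2, Dpp4, Mme, Ace, Mep1a, Mep1b, Ggt1 and Dpep1) from a mouse table of 21868 gene symbols. Each of the 10 was in the table, and each was among the 14300 genes that passed the filter on low counts.

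The libraries were made from polyadenylated RNA of jejunal epithelial cells, sorted per the labels as positive for EpCAM and negative for the leukocyte markers CD45, CD11b, CD3 and B220. In breakfast skipping (BSF, 2 libraries) mice were fed from ZT16 to ZT24, in lunch skipping (LSF, 3 libraries) during ZT12 to ZT16 and again during ZT20 to ZT24, and in dinner skipping (DSF, 2 libraries) from ZT12 to ZT20, where ZT is the hour of the light cycle and each pattern was kept for 2 weeks. BSF_C (3 libraries) is named breakfast skipping combined with control in the labels, and con (3 libraries) is the control. The feeding times of BSF_C and con, the strain and age of the mice, the hour of sampling and any pooling of animals were not found in the labels used here. Mice shared a cage and environment per the study design, and libraries of a group are called biological replicates without naming animals, so the p-values measure the spread between these libraries.

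The con libraries stood apart from the other 10. Their totals were 4851239 to 5202146 counts, against 7127769 to 8589351 in the others, and the first principal component of all genes, with 77% of the variance, placed them between -108.6 and -103.4 and the others between 26.0 and 37.2. The labels give no batch, so any other difference of the con libraries cannot be told apart from the feeding patterns in the comparisons with con. Pan-epithelial markers were detected in every group, and their summed level was 5735 to 6059 CPM (counts scaled by library total and trimmed means) in BSF_C, 5537 to 5849 in BSF, 5448 to 5465 in LSF, 6267 to 6470 in DSF and 6169 to 6978 in con. Single markers moved in both directions under these sums. In BSF against con their log2 fold changes ran from -1.43 to 0.79, and Cdh1 averaged 2018 CPM in con and 750 in BSF. Among 10 kidney tubule markers, 8 were at 0 in con, where Slc5a2 made up 81.3 of the 81.4 CPM, and the sum without Slc5a2 was 28.2 CPM in BSF_C, 19.0 in BSF, 21.1 in LSF, 22.1 in DSF and 0.138 in con.

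The promoters of 4 members are shown because they contrast the genes the results turn on. Ace and Enpep are both angiotensin-cutting enzymes that differed widely in their change, and Dpp4 and Xpnpep2 had the most similar pattern over the 5 groups of any 2 members. The sequences are the last 80 bases before the RefSeq start site on GRCm38.p6, at chr11:105967868-105967947 (plus strand) for Ace, chr3:129332750-129332829 (minus) for Enpep, chr2:62412232-62412311 (minus) for Dpp4 and chrX:48108645-48108724 (plus) for Xpnpep2. Capitals mark TATAAA or its reverse complement TTTATA in Ace and Enpep, and the GATA-type word AGATAA in Dpp4.
Ace: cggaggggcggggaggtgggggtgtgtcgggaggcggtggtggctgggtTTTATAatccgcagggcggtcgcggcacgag
Enpep: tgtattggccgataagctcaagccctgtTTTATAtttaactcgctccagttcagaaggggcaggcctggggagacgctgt
Dpp4: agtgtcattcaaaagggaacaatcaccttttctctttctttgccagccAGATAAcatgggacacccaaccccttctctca
Xpnpep2: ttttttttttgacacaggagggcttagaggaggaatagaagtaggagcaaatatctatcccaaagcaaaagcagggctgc

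Within 250 bases upstream, read on both strands, TATAAA was found in 4 of the 9 members with a promoter entry (Ace, Dpp4, Enpep and Ggt1), against 14.3% of 27025 genes. Its first base lay 31 bases before the start in Ace and 52 in Enpep. AGATAA was found in 2 members (Dpp4 and Ggt1), against 11.4% of genes. Some members have several promoter entries, and in Ggt1 the TATAAA and AGATAA matches lay in different ones. Counted by entry, TATAAA was in 4 of 15, against 12.4% of 32851, and AGATAA in 2 of 15, against 9.99%. The word TTTATNG, bound by CDX factors, was found in Dpp4 alone (11.3% of genes), where it shares letters with TATAAA, and the HNF1 word GTTAAT and the HNF4 word CAAAGTNCA were found in 0 members (7.49% and 1.40% of genes). These matches describe the letters of the windows. Mep1b, on chromosome 18, is named here without a promoter.

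Genes are placed on GRCm38 with GENCODE M21. Anpep lies at chr7:79821803-79861059 (minus strand), Enpep at chr3:129269175-129332720 (minus), Xpnpep2 at chrX:48108725-48136981 (plus), Dpp4 at chr2:62330073-62412231 (minus) and Mme at chr3:63241537-63386030 (plus). Ace lies at chr11:105967945-105989964 (plus), Mep1a at chr17:43474324-43502812 (minus), Ggt1 at chr10:75561604-75586200 (plus) and Dpep1 at chr8:123186242-123201812 (plus). Enpep and Mme share a chromosome but are far apart on it. Antisense genes overlap Dpp4 (Gm13561, 232 exonic bases) and Ace (Gm11651, 295 exonic bases), and since the strand setting of the counting was not given, their reads could be counted for the members.

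Taken as a set, the 10 genes made up 0.520% ± 0.00641 of counts in BSF_C (SD, n = 3), 0.521% ± 0.00728 in BSF (n = 2), 0.672% ± 0.00347 in LSF (n = 3), 0.536% ± 0.0107 in DSF (n = 2) and 0.265% ± 0.00622 in con (n = 3). LSF was the highest group for the mean of each of the 10 genes, and its libraries were clear of every other library for 9 of them, the exception being Mep1b. For 9 genes con was the lowest group and clear of all other libraries, the exception being Enpep. The share of all genes tested that were clear in these ways was not computed, so these counts have no background beside them.

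**Figure D1:**
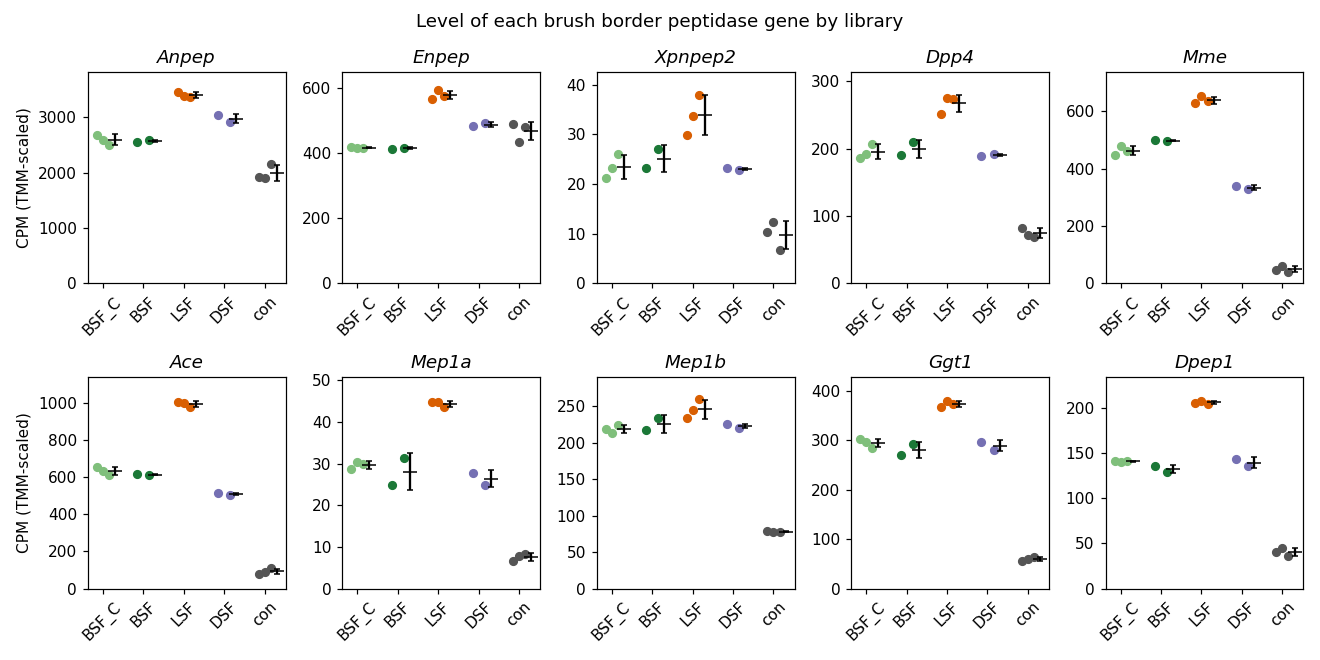
Scaled CPM of each peptidase gene (y axis, from 0) in every library (points) of BSF_C, BSF, LSF, DSF and con, with the mean and SD of each group beside its points. LSF lies highest for each gene, con lies far below the rest for Mme (48.9 CPM) and Ace (92.0 CPM), and Enpep is the gene whose con libraries lie within the range of the other groups.

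The aminopeptidases differed in how far they moved. Anpep, aminopeptidase N, which removes neutral residues and is the most abundant of the set, was at 2689, 2599 and 2502 CPM in BSF_C, 2558 and 2587 in BSF, 3458, 3387 and 3366 in LSF and 3033 and 2914 in DSF, against 1925, 1899 and 2156 in con. Its groups formed 3 steps, LSF above DSF above both breakfast-skipping groups, with con lowest and no overlap between the steps. Against con, the log2 fold change of Anpep was 0.38 ± 0.05 (SE) in BSF_C, 0.37 ± 0.05 in BSF, 0.77 ± 0.05 in LSF and 0.58 ± 0.05 in DSF, with adjusted p at most 5.14e-09 by the quasi-likelihood test of edgeR, adjusted by Benjamini-Hochberg over all 14300 genes, which is the test behind every adjusted p given. The sign of these 4 changes of Anpep turned when libraries were scaled to 11 microvillus structure genes (such as Vil1, villin, and Cdhr5, a cadherin between microvilli), where they were -0.58, -0.59, -0.46 and -0.43. Of these 11 genes, 10 were themselves higher than con in each feeding group. The list's median log2 fold changes were 0.99 in BSF_C, 0.97 in BSF, 1.19 in LSF and 1.03 in DSF. A change under this scaling is therefore relative to the rise of the microvillus genes.

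Enpep, aminopeptidase A, takes off acidic residues and turns angiotensin II into angiotensin III. It was at 418, 416 and 414 CPM in BSF_C, 412 and 416 in BSF, 566, 591 and 573 in LSF and 481 and 491 in DSF, against 489, 435 and 478 in con. Alone among the 10 it was lower in the breakfast-skipping groups than in con, by log2 fold changes of -0.17 ± 0.05 in BSF_C (adjusted p = 0.003) and -0.17 ± 0.06 in BSF (adjusted p = 0.00564), calls that were lost on library totals, where both changes were 0.00. With microvillus scaling both changes were -1.13 (adjusted p at most 2.98e-24), so their size depended on the scaling. Enpep was higher than con in LSF (0.30 ± 0.05, adjusted p = 4.58e-07) and did not pass in DSF (0.06 ± 0.06, adjusted p = 0.367), where the libraries overlapped those of con, and with microvillus scaling these were -0.92 and -0.95.

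Xpnpep2, the membrane-bound aminopeptidase P that cuts before a proline, was among the scarcest members, with 29 counts in the library where it had fewest. It was at 21.1, 23.3 and 25.9 CPM in BSF_C, 23.1 and 26.9 in BSF, 29.8, 33.8 and 37.8 in LSF and 23.1 and 22.8 in DSF, against 10.3, 12.3 and 6.67 in con. The con libraries lay below all others, and the LSF libraries above. The rise against con ranged from 1.22 ± 0.17 in DSF (adjusted p = 9.89e-09) to 1.78 ± 0.15 in LSF (adjusted p = 8.72e-16). With microvillus scaling the calls of Xpnpep2 in BSF_C (0.29, adjusted p = 0.101) and DSF (0.22, adjusted p = 0.259) were lost.

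Dpp4, the dipeptidyl peptidase that frees dipeptides ending in proline or alanine and inactivates the incretin hormones, was at 186, 192 and 208 CPM in BSF_C, 191 and 209 in BSF, 252, 276 and 274 in LSF and 189.8 and 192 in DSF, against 82.3, 72.5 and 68.6 in con. BSF_C, BSF and DSF occupied one range, with LSF above it and con below. Its log2 fold change against con was 1.39 ± 0.07 in BSF_C, 1.42 ± 0.07 in BSF, 1.84 ± 0.07 in LSF and 1.35 ± 0.08 in DSF, with adjusted p at most 1.51e-22.

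The peptide-hormone cutting enzymes Mme and Ace moved most. Mme, neprilysin, an endopeptidase that cuts before hydrophobic residues, was at 447, 479 and 463 CPM in BSF_C, 499 and 497 in BSF, 627, 652 and 636 in LSF and 339.5 and 328 in DSF, against 46.4, 60.5 and 39.8 in con. DSF stood below the other 3 feeding groups without overlap. Against con, Mme rose by 3.24 ± 0.07 on the log2 scale in BSF_C, 3.34 ± 0.08 in BSF, 3.70 ± 0.07 in LSF and 2.76 ± 0.08 in DSF, with adjusted p at most 1.86e-35. In LSF, 6.29% of all genes tested had a larger log2 fold change than Mme.

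Ace, angiotensin-converting enzyme, which removes dipeptides from the end of angiotensin I and other peptides, was at 656, 635 and 610.5 CPM in BSF_C, 615 and 609.8 in BSF, 1001, 999.97 and 976 in LSF and 514 and 504 in DSF, against 80.9, 86.8 and 108 in con. LSF stood clear above and DSF clear below the breakfast-skipping groups. The rise against con was 2.79 ± 0.06 in BSF_C, 2.74 ± 0.07 in BSF, 3.44 ± 0.06 in LSF and 2.47 ± 0.07 in DSF, with adjusted p at most 4e-36. The table gives 1 value per gene, so the somatic and germ-cell forms of Ace, which start at different promoters, are not separated.

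The meprins are metalloendopeptidases whose alpha and beta chains, from Mep1a and Mep1b, pair by disulphide bonds. Mep1a was at 28.6, 30.4 and 29.8 CPM in BSF_C, 24.9 and 31.3 in BSF, 44.7, 44.8 and 43.5 in LSF and 27.8 and 24.9 in DSF, against 6.60, 7.89 and 8.29 in con. Mep1b was at 219, 213 and 225 CPM in BSF_C, 218 and 235 in BSF, 234, 246 and 259.7 in LSF and 225 and 221 in DSF, against 79.01, 78.1 and 77.8 in con. The alpha chain gene thus had a clear LSF group, while LSF overlapped BSF for the beta chain gene. Against con, Mep1a rose by 1.97 ± 0.14 in BSF_C, 1.90 ± 0.16 in BSF, 2.55 ± 0.14 in LSF and 1.80 ± 0.16 in DSF (adjusted p at most 1.08e-14). Mep1b rose by 1.48 ± 0.06 in BSF_C, 1.53 ± 0.07 in BSF, 1.65 ± 0.06 in LSF and 1.51 ± 0.07 in DSF (adjusted p at most 4.06e-26). Per kilobase of exon, the level of Mep1b was 9.73 ± 0.450 times that of Mep1a in BSF_C, 10.7 ± 1.16 in BSF, 7.31 ± 0.495 in LSF and 11.2 ± 0.711 in DSF, against 13.7 ± 1.80 in con, so the ratio was lowest in LSF, without overlap with another group.

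Ggt1 and Dpep1 act one after the other on glutathione: Ggt1, gamma-glutamyltransferase, removes its gamma-glutamyl group, and Dpep1 splits the remaining dipeptide. Ggt1 was at 302, 296 and 284 CPM in BSF_C, 269 and 292 in BSF, 367, 379 and 373 in LSF and 296 and 281 in DSF, against 55.9, 59.4 and 63.1 in con. Dpep1 was at 141, 139.5 and 140.4 CPM in BSF_C, 136 and 129 in BSF, 205, 208 and 204 in LSF and 143 and 135 in DSF, against 40.2, 45.3 and 35.9 in con. For both genes LSF lay highest without overlap and con lowest. Ggt1 rose against con by 2.31 ± 0.07 in BSF_C, 2.24 ± 0.07 in BSF, 2.65 ± 0.07 in LSF and 2.28 ± 0.07 in DSF, and Dpep1 by 1.79 ± 0.08, 1.70 ± 0.08, 2.34 ± 0.07 and 1.78 ± 0.08 in the same groups, with adjusted p at most 1.66e-25. Dpep1 lies in a long same-strand gene model, Gm20388, with which it shares 0 exonic bases.

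Counted over the list, 10 of 10 members were called in BSF_C against con, beside 73% of all genes tested, and the 9 that were higher stand beside 39.8% of genes higher. In BSF against con it was also 10 of 10, beside 70.2% of genes, with 9 higher beside 38.3%. LSF against con called 10 of 10 beside 72%, each of them higher beside 38.9%, and DSF against con 9 of 10 beside 67.7%, each higher beside 36.6%. Most genes tested were called in these comparisons. The members' median log2 fold change was 1.64 in BSF_C, 1.62 in BSF, 2.09 in LSF and 1.64 in DSF, beside medians of 0.119, 0.111, 0.1 and 0.101 over all genes. These 4 comparisons share the con libraries.

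**Figure D2:**
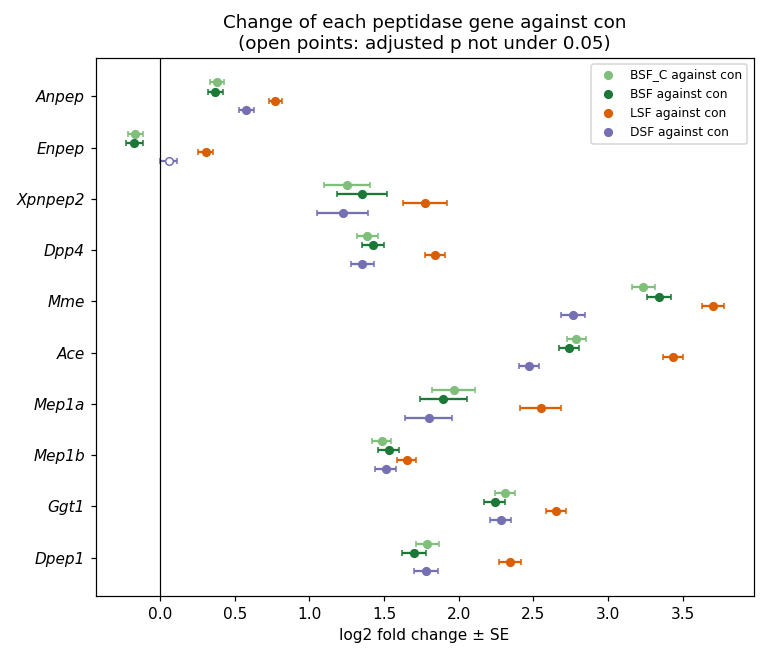
Log2 fold change ± SE (x axis) of each peptidase gene (y axis) in BSF_C, BSF, LSF and DSF against con; open points did not pass. Mme and Ace lie farthest right, up to 3.70 for Mme in LSF, and Enpep lies near 0 and below it in the breakfast-skipping groups.

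Several marker lists moved with the peptidases in the comparisons with con. The 12 enterocyte markers summed to 23262 to 24643 CPM in BSF_C, 23986 to 24229 in BSF, 26947 to 27363 in LSF and 18232 to 18533 in DSF, against 4556 to 4847 in con, and each of the 12 was higher in each feeding group. The 10 leukocyte markers summed to 172 to 199 CPM in BSF_C, 158 to 178 in BSF, 265 to 274 in LSF and 272 to 281 in DSF, against 13.8 to 16.1 in con, where Cd3g and Cd8b1 were at 0. Most of the con sum was Itgam, which averaged 12.1 CPM in con, 7.23 in BSF_C and 7.39 in BSF. In each feeding group 8 of the 10 leukocyte markers were higher than con and 1 lower. Endothelial markers summed to 5.89 to 7.34 CPM in BSF_C, 5.34 to 6.45 in BSF, 8.601 to 9.17 in LSF and 7.91 to 9.10 in DSF, against 1.03 to 1.61 in con, where Cdh5, Kdr and Emcn were at 0. Markers of tissues outside the gut were also present: 6 heart muscle markers summed to 107 to 127 CPM in BSF_C, 112 to 116 in BSF, 285 to 333 in LSF and 308 to 315 in DSF, against 6.23 to 9.28 in con, where Myh6, Actc1 and Nppa were at 0. For 6 skin keratinocyte markers con was the high group, at 385 to 468 CPM, with at most 4.22 CPM in any other library. The 7 stem cell markers summed to 2176 to 2238 CPM in BSF_C, 2230 to 2326 in BSF, 1724 to 1740 in LSF and 2173 to 2204 in DSF, against 3445 to 3643 in con. Olfm4 alone averaged 2812 CPM of this sum in con. By gene, 5 were lower than con in BSF_C and in BSF and 6 in LSF and in DSF, while 1 was higher in each. Paneth cell markers went the other way, with 5 of 5 higher than con in each feeding group. They summed to 1759 to 1806 CPM in BSF_C, 1688 to 1711 in BSF, 1301 to 1384 in LSF and 1486 to 1544 in DSF, against 312 to 363 in con. Fibroblast markers were also higher in each feeding group, for 6 of 6 genes, with sums of at most 0.619 CPM in con. The part of these marker lists in the changes of the peptidases was not tested, and in bulk libraries fewer enterocytes and less RNA per enterocyte cannot be told apart.

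Between the feeding patterns, LSF stood above both others. In BSF against LSF, 9 of 10 members were lower and 0 higher, beside 29.3% of genes called and 15.9% lower, with a median of -0.42 beside 0.00775 over all genes. The largest differences were in Ace (-0.70 ± 0.06, adjusted p = 7.06e-14), Mep1a (-0.65 ± 0.11, adjusted p = 2.95e-06) and Dpep1 (-0.64 ± 0.07, adjusted p = 1.65e-11). Enpep (-0.48 ± 0.06), Dpp4 (-0.42 ± 0.07), Ggt1 (-0.41 ± 0.06), Anpep (-0.40 ± 0.05) and Mme (-0.36 ± 0.06) were also lower, with adjusted p at most 1.2e-05. Xpnpep2 was lower by -0.42 ± 0.12 (adjusted p = 0.00759), a call that did not hold without BSF replicate 1 (adjusted p = 0.148) or without LSF replicate 3 (adjusted p = 0.0666). Mep1b was at -0.12 ± 0.06 and did not pass (adjusted p = 0.13). With microvillus scaling the calls of Mme (-0.089, adjusted p = 0.237), Dpp4 (-0.15, adjusted p = 0.0523) and Xpnpep2 (-0.16, adjusted p = 0.31) were lost, and Mep1b passed in the other direction (0.15, adjusted p = 0.0358).

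LSF against DSF, whose feeding windows cover the same number of hours at different times, gave 9 of 10 members higher and 0 lower, beside 15.9% of genes called and 8.97% higher, with a median of 0.52 beside -0.000357 over all genes. Ace (0.96 ± 0.06, adjusted p = 6.15e-19) and Mme (0.94 ± 0.07, adjusted p = 2.81e-17) had the largest differences, and 2.38% and 2.57% of all genes tested had a larger one. Mep1a followed at 0.75 ± 0.11, Dpep1 at 0.56 ± 0.07, Xpnpep2 at 0.55 ± 0.13, Dpp4 at 0.49 ± 0.07, Ggt1 at 0.37 ± 0.06 and Enpep at 0.25 ± 0.06, with adjusted p at most 0.00106. Anpep passed at 0.19 ± 0.05 (adjusted p = 0.00358), and this call was lost without DSF library S3 (adjusted p = 0.121). Mep1b was at 0.14 ± 0.06 (adjusted p = 0.116), although its LSF libraries lay above both DSF libraries. With microvillus scaling Anpep was at -0.029, Enpep at 0.023 and Mep1b at -0.082, and none of these passed.

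In BSF against DSF the members moved in opposite directions. Mme (0.58 ± 0.07, adjusted p = 8.37e-09) and Ace (0.27 ± 0.07, adjusted p = 0.00334) were higher in BSF, and Anpep (-0.21 ± 0.05, adjusted p = 0.0065) and Enpep (-0.23 ± 0.06, adjusted p = 0.00648) were lower. The remaining 6 did not pass, with log2 fold changes from -0.08 for Dpep1 to 0.13 for Xpnpep2. The 4 calls of 10 stand beside 12% of all genes called. Anpep lost its call without BSF replicate 1 (adjusted p = 0.0756), BSF replicate 2 (0.0552) or DSF library S2 (0.126), Enpep without BSF replicate 1 (0.0653), BSF replicate 2 (0.0546) or DSF library S3 (0.0807), and Ace without DSF library S3 (0.0669), while Mme kept it without any 1 library.

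BSF_C against BSF called 0 of 10 members in edgeR's quasi-likelihood test, beside 0.133% of all genes called (19 genes, and 573 at an unadjusted p under 0.05). The members' log2 fold changes ran from -0.10 in Mme and Xpnpep2 to 0.09 in Dpep1, with SE between 0.05 and 0.13 and an adjusted p of 1 for each. DESeq2 and limma-voom also called 0 members. Libraries of BSF_C and BSF overlapped for 8 members and did not for Mme, which was lower in BSF_C, and Dpep1, which was higher. Neither gene was called, and the share of all genes without overlap was not computed, so no difference is read from this.

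**Figure D3:**
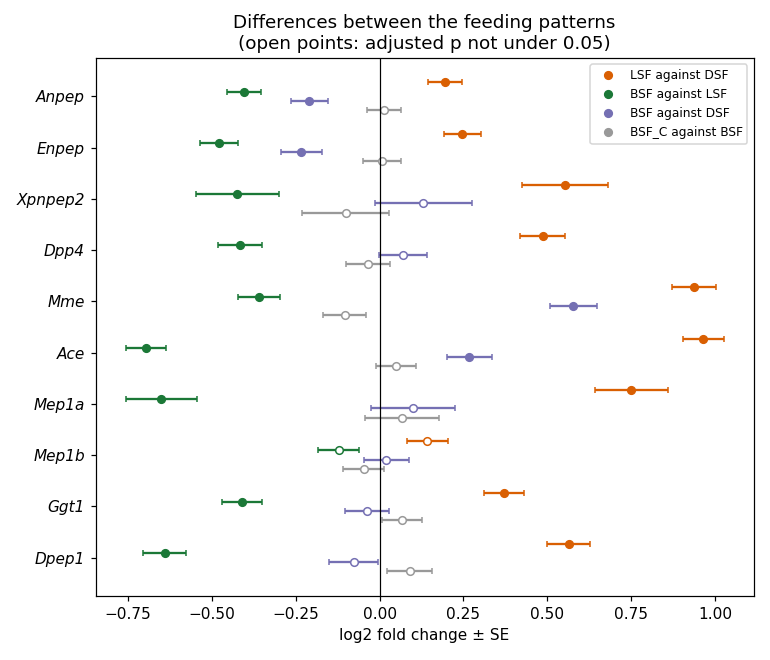
Log2 fold change ± SE (x axis) of each peptidase gene (y axis) in LSF against DSF, BSF against LSF, BSF against DSF and BSF_C against BSF; open points did not pass. The first comparison lies right of 0 and the second left of 0 for each gene, with Mep1b open in both, and in BSF against DSF the filled points of Mme and Ace lie right and those of Anpep and Enpep left.

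The enterocyte markers also separated LSF from DSF, with 12 of 12 higher and a median of 0.52, equal to that of the peptidases, and the 11 microvillus structure genes had 7 higher and a median of 0.19. Villus tip markers summed to 635 to 647 CPM in LSF, against 425 to 429 in DSF, with 3 of 6 genes higher and 0 lower. Lower in LSF were the sums of villus bottom markers (2150 to 2181 CPM, against 3222 to 3433 in DSF), stem cell markers (1724 to 1740 CPM, against 2173 to 2204 in DSF), proliferation markers (504 to 509 CPM, against 649.6 to 673 in DSF, with 5 of 6 genes lower) and Paneth cell markers (1301 to 1384 CPM, against 1486 to 1544 in DSF). By gene, 3 of 5 villus bottom, 3 of 7 stem cell and 3 of 5 Paneth cell markers were called lower in LSF, and 0 higher. Olfm4 alone averaged 1300 CPM of the stem cell sum in LSF and 1723 in DSF. The leukocyte sums of LSF (265 to 274 CPM) and DSF (272 to 281 CPM) overlapped, as did their heart muscle sums (285 to 333 CPM in LSF and 308 to 315 CPM in DSF). In BSF against LSF, 9 of 12 enterocyte markers were lower and 1 higher (median -0.32), and 8 of 11 microvillus genes lower. The sums of the leukocyte and heart muscle markers were also lower in BSF (158 to 178 and 112 to 116 CPM) than in LSF (265 to 274 and 285 to 333 CPM). Proliferation markers were higher in BSF for 6 of 6 genes (723 to 753 CPM, against 504 to 509 in LSF), and Paneth cell markers for 5 of 5 (1688 to 1711 CPM, against 1301 to 1384 in LSF). Stem cell (2230 to 2326 CPM in BSF, against 1724 to 1740 in LSF) and villus bottom sums (2423 to 2437 CPM in BSF, against 2150 to 2181 in LSF) were higher in BSF, and villus tip sums lower (455 to 473 CPM in BSF, against 635 to 647 in LSF). By gene, 3 of 7 stem cell markers were higher in BSF and 1 lower, and 2 of 5 villus bottom markers higher and 0 lower. Of the 6 villus tip markers, 3 were lower and 0 higher. The part of these lists in the peptidases' differences was not tested.

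Per kilobase of exon, which allows levels of different genes to be set side by side, Anpep came first in each group, at 628 CPM per kb in BSF_C, 622 in BSF, 823 in LSF, 719 in DSF and 482 in con, and Xpnpep2 last, at 4.80, 5.13, 6.93, 4.71 and 2.00. The members between them changed places. Ace ranked 2 in BSF_C, BSF and LSF (120, 116 and 188 CPM per kb), 3 in DSF (96.2) and 5 in con (17.4), while Enpep ranked 2 in DSF and con (103 and 99.3). Neighbours in this order that overlapped between libraries were Enpep, Ggt1 and Mep1b in BSF_C and in BSF, Mep1b and Ggt1 in DSF, and Ggt1, Ace and Dpep1 as well as Mep1a and Xpnpep2 in con. In LSF no neighbours overlapped. Anpep made up 54.7% of the summed CPM per kb in BSF_C, 54.8% in BSF, 53.6% in LSF and 59.2% in DSF, against 70.6% in con. Ace made up 10.4%, 10.2%, 12.2% and 7.92% in the same 4 groups, against 2.54% in con. The share of Enpep was 7.71%, 7.75%, 7.98% and 8.50%, against 14.6% in con. The exon length used for Mme, 11542 bases, includes long alternative ends, so its level per kb may be understated.

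**Figure D4:**
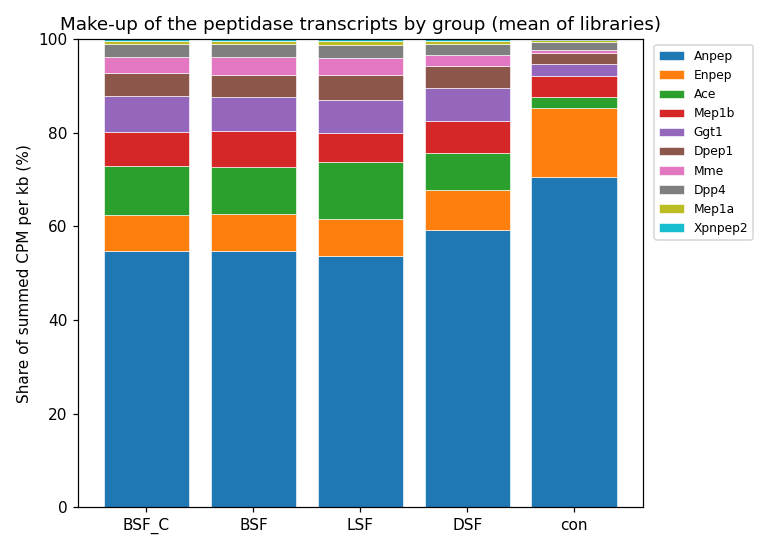
Share of each peptidase gene in the summed CPM per kb of the 10 genes (y axis, stacked to 100%) in BSF_C, BSF, LSF, DSF and con, as means of libraries. Anpep takes more than any other gene in each bar and 70.6% in con, where the segments of Ace (2.54%) and Mme (0.626%) are thin.

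Patterns over the groups were compared by the root mean square difference of the 5 centred group means of log2 CPM, a description over 5 groups. Dpp4 and Xpnpep2 were closest among the members (0.046), followed by Mep1a and Dpep1 (0.072) and Dpp4 and Mep1b (0.122). Mme was closest to Ace (0.206) and Anpep to Enpep (0.21) among the members. Of all genes tested, 26 lay nearer to Mme than Ace did, and 2272 nearer to Anpep than Enpep did. Enpep and Mme were the farthest apart (1.34). Outside the set, the nearest genes were Relb (0.019) and Rogdi (0.024) for Anpep, Slc51a (0.024) and Hkdc1 (0.033) for Enpep, and Pnp2 (0.025) and Slc27a4 (0.040) for Mep1b. For Ggt1 they were Cd226 (0.027) and Cyp2c65 (0.039), for Dpp4 Ccng2 (0.034) and Hhipl1 (0.038), and for Xpnpep2 Ccng2 (0.040) and Ddhd2 (0.060). For Dpep1 they were Evi2a (0.036) and Reg3a (0.037), for Mep1a Reg3a (0.046) and Ada (0.072), for Ace Cyp4v3 (0.066) and Slc46a1 (0.070), and for Mme Prxl2a (0.091) and Aldh1a1 (0.097). Cd226 and Hhipl1 averaged 0 CPM in con and at most 2.61 and 1.55 CPM in another group, and Evi2a averaged 0.345 CPM in con. The con values of these scarce genes rest mostly on the small constant added before taking logs.

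Other peptidases of the cell surface did not share one direction. Of 18 such genes 12 were tested, and LSF against con called 6 higher and 5 lower, with a median of 0.28. Of all genes tested, 38.9% were higher and 33% lower in LSF against con. Tmprss15, enteropeptidase, which activates trypsinogen, averaged 23.4 ± 3.24 CPM in LSF and 0.843 ± 0.527 in con (SD, n = 3 each; 4.74 ± 0.27, adjusted p = 1.43e-22), and Naaladl1, a dipeptidase-like surface protein, averaged 247 ± 12.02 in LSF and 84.0 ± 2.87 in con (1.56 ± 0.06). Ece1, the endothelin-converting enzyme, fell by 1.00 on the log2 scale in LSF (106 ± 1.74 CPM, against 213 ± 7.93 in con). In LSF against DSF the list had 4 higher and 2 lower, in BSF against LSF 0 higher and 4 lower, and in BSF against DSF 1 higher and 1 lower. The shares of all genes in these comparisons were 8.97% higher and 6.91% lower, 13.4% and 15.9%, and 5.76% and 6.24%. Tmprss15 followed the direction of Ace, at 1.17 ± 0.16 in LSF against DSF and -1.25 ± 0.16 in BSF against LSF.

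Agt, angiotensinogen, the source of the peptides that Ace and Enpep cut, averaged 3.43 ± 1.76 CPM in LSF and 1.65 ± 0.194 in con (adjusted p = 0.0096), and the receptor Agtr1a averaged 1.39 ± 0.541 in LSF and 0.0692 ± 0.120 in con (adjusted p = 0.000358). Of 9 genes for gut peptides, some of them substrates of Dpp4 and Mme, 7 were tested, and LSF against con called 2 higher and 0 lower. These were Sct, secretin, at 33.1 ± 1.62 CPM in LSF and 12.3 ± 0.900 in con (1.42 ± 0.13, adjusted p = 1.6e-14), and Cck, cholecystokinin, at 12.1 ± 0.495 in LSF and 6.72 ± 1.77 in con (0.84 ± 0.19, adjusted p = 0.000119). The incretin genes Gip (0.23 ± 0.26, adjusted p = 0.436) and Gcg (-0.60 ± 0.38, adjusted p = 0.157) did not pass. Of all genes tested, 38.9% were higher and 33% lower in LSF against con.

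The 22 peptidases listed as intracellular split in both directions. The list also holds genes such as Ctsc and Erap1, so its counts are not those of the enzymes that finish absorbed peptides. LSF against con called 9 higher and 10 lower, with a median of 0.04, beside 38.9% and 33% of all genes tested. LSF against DSF called 4 in each direction, beside 8.97% of all genes higher and 6.91% lower. Among the higher ones, Rnpep, aminopeptidase B, averaged 163 ± 1.96 CPM in LSF and 40.7 ± 2.68 in con (1.99 ± 0.08), Pepd, prolidase, 169 ± 3.13 in LSF and 50.4 ± 4.67 in con (1.75 ± 0.07), and Cndp2, a cytosolic dipeptidase, 269.6 ± 7.19 in LSF and 88.7 ± 8.65 in con (1.61 ± 0.07). Lap3, leucine aminopeptidase, was higher in LSF than in DSF (0.71 ± 0.08) and lower in BSF than in LSF (-0.89 ± 0.08), while Rnpep moved the other way, lower in LSF than in DSF (-0.51 ± 0.07) and higher in BSF than in LSF (0.48 ± 0.07).

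Carriers of peptides and amino acids mostly had the direction of the peptidases. The list does not separate uptake at the brush border from release to the blood. Of 12 peptide and amino acid transporters, 10 were higher and 1 lower in LSF than in con (median 0.91), 11 higher and 0 lower in LSF than in DSF (median 0.43), and 10 lower and 0 higher in BSF than in LSF (median -0.54). The shares of all genes were 38.9% higher, 8.97% higher and 15.9% lower in these comparisons. Slc15a1, the di- and tripeptide carrier of the brush border, was at 134, 128 and 127 CPM in LSF and 67.5 and 76.2 in DSF, against 16.1, 18.7 and 11.05 in con. It rose by 3.07 ± 0.10 in LSF against con and by 0.85 ± 0.08 in LSF against DSF, and in BSF against LSF it was at -1.18 ± 0.09. Slc6a19, the main carrier of neutral amino acids, was at 545, 544 and 538 CPM in LSF and 303 and 318 in DSF, against 75.7, 71.9 and 81.9 in con, a change of 2.83 ± 0.06 in LSF against con and 0.80 ± 0.06 in LSF against DSF. Slc1a1, the acidic amino acid carrier, was the 1 lower gene, at 79.2 ± 8.15 CPM in LSF and 220.2 ± 5.71 in con (-1.48 ± 0.07). In BSF against DSF 5 of the carriers were lower and 1 higher.

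**Figure D5:**
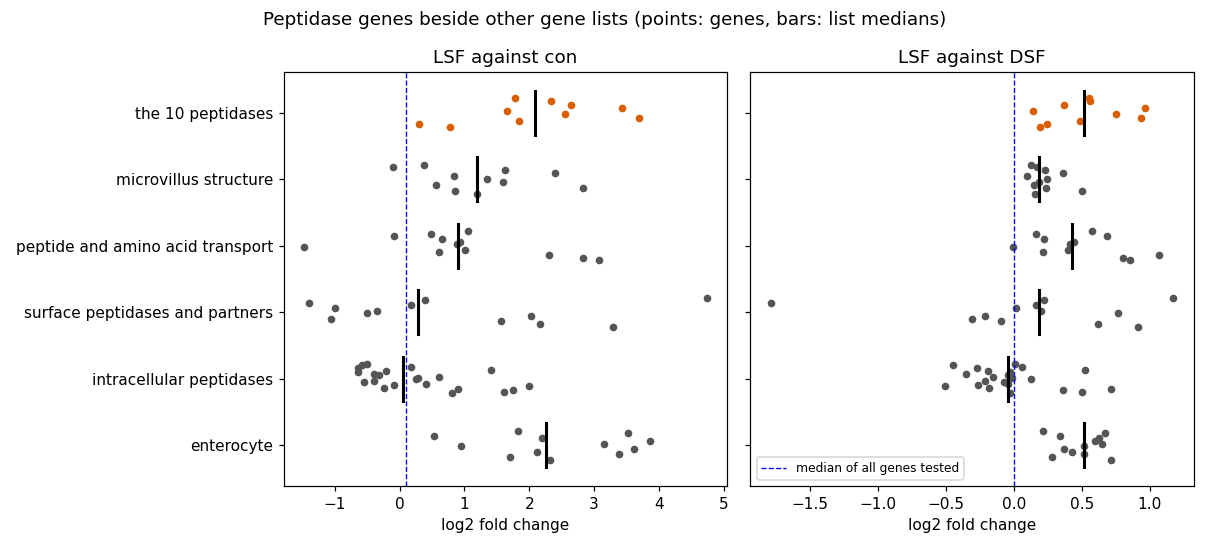
Log2 fold change (x axis) of each gene tested (points) of 6 lists (y axis), with list medians (bars) and the median of all genes (dashed line), in LSF against con (left) and LSF against DSF (right). The medians of the peptidases, 2.09 and 0.52, lie beside those of the enterocyte markers, 2.26 and 0.52, while surface and intracellular peptidases spread on both sides of 0.

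Of 8 genes of glutathione synthesis and turnover outside the set, 4 were higher and 3 lower in LSF than in con. Of all genes tested, 38.9% were higher and 33% lower. Gclm, a subunit of the enzyme that makes gamma-glutamylcysteine, averaged 125 ± 6.92 CPM in LSF and 44.8 ± 4.26 in con (1.48 ± 0.08), and Gsr, glutathione reductase, 99.9 ± 4.38 in LSF and 361 ± 15.997 in con (-1.85 ± 0.06). The list therefore did not follow Ggt1 and Dpep1, both higher, in 1 direction. Of 13 intestinal transcription factors, 4 were higher and 8 lower in LSF than in con, beside the same shares of all genes. Hnf4a, a regulator of enterocyte genes, averaged 1344 ± 25.9 CPM in LSF and 3390 ± 271 in con (-1.33 ± 0.05), its relative Hnf4g 305 ± 18.2 in LSF and 126 ± 19.9 in con (1.28 ± 0.07), and Maf, a factor of mature enterocytes in mice, 288 ± 4.09 in LSF and 92.6 ± 5.16 in con (1.64 ± 0.06).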

How the data were processed

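Sorted jejunal epithelial cells were sequenced as polyadenylated RNA, per the labels' protocols. The authors deposited raw counts per gene, whole numbers for 21868 symbols in 13 libraries. Per the submitters' processing notes, reads were handled with STAR 2.7.2e, cutadapt 2.9, FastQC 0.11.8 and DESeq2 1.32.0, on builds named as mm10 and GRCm38, with no roles stated. The annotation, the strand setting and the treatment of shared reads are not given in the sources used here. DSF columns are marked S2 and S3 while the labels number replicates 1 and 2, so DSF libraries carry no replicate number.

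Genes were filtered with filterByExpr (14300 genes, 99.9% of counts), scaled by trimmed means (TMM) and fitted in edgeR 4.0.16 (R 4.3.3) with group as the only term and 8 residual degrees of freedom. The quasi-likelihood test was two-sided, with Benjamini-Hochberg adjustment over all genes tested and a threshold of 0.05. SE is the log2 fold change, without sign, over the square root of F. The common biological coefficient of variation was 4.87%. Symbols were matched to GENCODE M21 on GRCm38 (21689 matched), whose union of exons gave lengths, and to RefSeq promoters on GRCm38.p6 (9 of 10 members). The procedure was run on simulated counts in which a small set of genes was changed in LSF, up and down alike. Such counts do not test the choice of scaling, on which the sign of some changes against con depended.

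All 10 members are named in each comparison, and other genes by the smallest p within lists; 1 gene taken by this rule is not reported here. The members, lists and alternatives were chosen with earlier results of these data known. Alternatives were DESeq2 size factors, library totals, scaling to microvillus genes, DESeq2 1.42.0, limma-voom (limma 3.58.1), no filter, only the compared groups, con left out, a replicate block, a 1.5-fold minimum and leaving out each library.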

Additional observations from a re-analysis of the deposited data

How the results depend on the processing

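Over the 10 genes and 8 comparisons, 1086 of 1140 values under alternatives kept their side of the threshold, 40 lost the call, 5 gained it and 9 changed sign with a call before or after. These 9 came from the choice of scaling. Among the 1086, a further 13 values that passed neither before nor after changed sign, 3 by scaling and 10 when 1 library was left out. On library totals Enpep in BSF against con was at 0.0011 (adjusted p = 0.985). With libraries scaled to the microvillus structure genes, which moved the median of all genes to -0.842 in BSF_C, -0.849 in BSF, -1.13 in LSF and -0.903 in DSF against con, Anpep was at -0.58, -0.59, -0.46 and -0.43 in these comparisons, Enpep at -0.92 in LSF and -0.95 in DSF, Mep1b in BSF against LSF at 0.15 and Anpep in LSF against DSF at -0.029. The members' medians under this scaling were 0.675, 0.655, 0.861 and 0.638 against con, -0.152 in BSF against LSF and 0.297 in LSF against DSF, and 10.1% to 16.8% of all called genes were higher against con and in LSF against DSF (54% to 56.5% before), 87.9% in BSF against LSF (45.9% before) and 61.9% in BSF against DSF (48% before). Library totals moved the median of all genes to 0.198 to 0.287 against con, and the higher share of calls to 62.9% in BSF against LSF and 38% in LSF against DSF.

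Asking for a change of at least 1.5-fold left 3 members in BSF against LSF, 0 in BSF against DSF and 3 in LSF against DSF. Leaving out 1 library gave 2 to 3 members in BSF against DSF, against 4 with all libraries. Mep1b passed in BSF against LSF and in LSF against DSF where con was left out of the fit (adjusted p = 0.0418 and 0.026). Enpep in DSF against con passed on library totals (0.22, adjusted p = 0.000135), and in BSF against con it was lost with only these groups in the fit (adjusted p = 0.0701). Over all genes, BSF_C against BSF called 19 genes and 2 to 32 under the alternatives, BSF against LSF 4189 and 1555 with a 1.5-fold minimum, 7423 with microvillus scaling and 2556 to 3493 when 1 library was left out, BSF against DSF 1716, 1111 with DESeq2, 870 with the minimum and 799 to 920 without 1 library, and LSF against DSF 2271, 570 with the minimum, 5474 with microvillus scaling and 1288 to 1866 without 1 library. Same-numbered libraries did not vary together (correlations of -0.078 to 0.038), and a fit with the replicate block called 10 members in BSF_C, BSF and LSF against con, 0 in BSF_C against BSF and 9 in BSF against LSF, so it changed no call.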
